A study of Homo sapiens with 4 samples.

Results

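The HMGA, LIN28 and IGF2BP genes HMGA1, HMGA2, LIN28A, LIN28B, IGF2BP1, IGF2BP2 and IGF2BP3 were followed in SCC-9 cells, a human tongue squamous carcinoma line, after transfection with a mimic of miR-585-5p or with the control small RNA miR-NC. Their 7 genes are read by 19 probe sets among the 49395 of the array, taken as every probe set whose platform annotation gives exactly 1 gene symbol and that symbol is one of the 7. HMGA2 and IGF2BP1 were picked because earlier results on these arrays showed them changing in opposite directions, so their values are described here without a test. The other 5 genes were added as relatives of that pair and are tested in a fit over all probe sets. The mimic group and the miR-NC group had 2 arrays each. Both were transfected at 30 nM, 24 hours after plating, and RNA was taken 36 hours after transfection. Labelling used 2 ug of total RNA. All 4 arrays share 1 cell line. The labels do not say whether the arrays of a group stem from different cultures, so a p-value here covers the variation among these arrays alone, which may be technical.

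HMGA1 and HMGA2 are small chromatin proteins that bind AT-rich DNA through AT-hooks and alter its shape, and HMGA2 is abundant in embryonic tissue and silent in most adult tissue until some tumours switch it on again. LIN28A and LIN28B bind precursors of the let-7 microRNAs and block their maturation. IGF2BP1, IGF2BP2 and IGF2BP3 bind messenger RNAs, many of them carrying N6-methyladenosine (m6A), and affect their stability, transport and translation. Let-7 microRNAs repress HMGA2, LIN28B and IGF2BP1 through sites in their 3' untranslated regions, which is why these fetal genes are often discussed together in squamous and other carcinomas.

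The microRNA supplied and members of the let-7 family are shown because the seed, bases 2 to 8 and in capitals here, largely sets which messages a microRNA pairs with. The sequences are RefSeq's mature microRNAs on GRCh38.p14, written 5' to 3', and the sequence of the synthetic mimic itself was not used here.
hsa-miR-585-5p: cUAGCACAcagauacgcccaga
hsa-let-7a-5p: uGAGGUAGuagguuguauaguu
hsa-let-7g-5p: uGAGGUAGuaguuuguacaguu
hsa-let-7d-5p: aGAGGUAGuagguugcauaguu
hsa-miR-98-5p: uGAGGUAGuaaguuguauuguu
The miR-585-5p seed matched the let-7 seed at 2 of 7 positions. Of 2370 mature microRNA names in the table, 11 carried the let-7a seed, and 1, miR-585-5p itself, carried its own seed. MIR585 lies on chromosome 5, and the mature 5p arm spans chr5:169263649-169263670 on the minus strand, within the span of the gene SLIT3. No probe set of these arrays measured either microRNA.

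Values are the submitters' probe set intensities on a linear scale, and changes are log2 values of mimic minus miR-NC with the standard error (SE) of a limma fit. A probe set was tested where its mean log2 intensity over the 4 arrays exceeded the 30th percentile of all probe sets, an intensity of 12.04, and a change was called at an adjusted p under 0.05. A value counted as above background on an array where it exceeded every one of 20 control probe sets with no human target there, the brightest of which reached 14.2 and 15.02 on mimic arrays, against 16.8 and 14.2 on miR-NC arrays. Of the 19 probe sets, 15 passed the filter and 14 were above background on all 4 arrays. The filter used the mean over all arrays, so the 15 are a selection of the 19. Probe sets differ in how well they hybridize, so no level of one gene is ranked against another.

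Across all probe sets, which are not independent replicates, Pearson's r of log2 values was 0.997 to 0.998 within a group and 0.978 to 0.982 between groups. The poly(A) spikes, bacterial RNAs mixed in ahead of the labelling step, read 0.34 higher (log2) on the mimic arrays, with 0.48 for phe and 0.08 for thr, while the hybridization spikes differed by -0.05. Scaling to the poly(A) spikes lowers every change by the same 0.34 and puts the median gene at -0.40, against -0.06 on the deposited scale. The 3' to 5' signal ratio of GAPDH was 1.11 on both mimic arrays, against 1.22 and 1.16 on the miR-NC arrays, while ACTB gave 14.3 with the mimic on either array, against 14.4 and 13.8 with miR-NC. The part of these ratios in the results was not tested. Values on the poly(A) scale stand beside each named member or related list gene whose call they end or turn. The cell type markers are given on the deposited scale only. All 5 squamous epithelial markers measured (KRT5, KRT14, EGFR, EPCAM and CDH1) were above background on all 4 arrays, with summed intensities of 18667 and 17884 on the mimic arrays, against 15598 and 16232 on the miR-NC arrays. They did not move together: KRT14 (0.97), EPCAM (0.59) and KRT5 (0.24) rose, while CDH1 (-1.26) and EGFR (-0.29) fell. The KRT5 rise is smaller than the 0.34 by which the poly(A) scale lowers every change, so its sign turns there. The fibroblast markers COL3A1, DCN, LUM and PDGFRA, the leukocyte marker PTPRC, the endothelial marker CDH5 and the melanocyte marker MLANA were above background on none. Of the same marker lists, CD68, PECAM1, VWF, PMEL and TYR were above it on all 4, the fibroblast marker COL1A2 on 1 and the leukocyte marker CD3E on 2.

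HMGA2, on chromosome 12 (chr12:65824460-65966291, GRCh38.p14), read higher with the mimic on its brighter probe sets and slightly lower on dimmer ones. The brightest, 11740656_a_at, is annotated to the RefSeq transcript NM_003483. It read 1087 and 1228 on the mimic arrays, against 107 and 142 on the miR-NC arrays. Both mimic values lay far above both miR-NC values, and the groups did not overlap. The mean intensity was 1158 ± 99.2 in the mimic group and 125 ± 24.7 in the miR-NC group (SD, n = 2 each). The change was 3.23 ± 0.11 (log2, SE), a 9.36-fold higher level with the mimic, and over the 4 pairs of one mimic and one miR-NC array it ran from 2.94 to 3.52. Between the miR-NC arrays themselves this probe set differed by -0.41 (log2, replicate 1 minus replicate 2). In the whole table HMGA2 ranked 6 of 14123 genes from the top by this probe set, a rank that reflects how it was chosen.

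The next HMGA2 probe set, 11732032_a_at, is annotated to NM_003484, a transcript with an alternative 3' end. It read 88.6 and 91.1 on the mimic arrays, against 38.2 and 48.8 on the miR-NC arrays. Again both mimic arrays were above both miR-NC arrays, with a change of 1.06 ± 0.13 (log2, SE) or 2.08-fold. Its miR-NC arrays stood apart by -0.35 (log2, replicate 1 minus replicate 2), the direction seen for the brightest probe set. Both probe sets annotated to RefSeq transcripts of HMGA2 therefore read higher with the mimic, by different amounts.

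The other HMGA2 probe sets were annotated to GenBank records and were dim. Probe set 11761705_a_at (AY601863) read 33.1 and 35.9 on the mimic arrays, against 48.0 and 41.5 on the miR-NC arrays, a change of -0.37 ± 0.13 (log2, SE). Probe set 11762147_at (AY601861) read 27.1 and 28.2 on the mimic arrays, against 35.6 and 31.7 on the miR-NC arrays, a change of -0.28 ± 0.13 (log2, SE). In both, the mimic arrays lay below the miR-NC arrays without overlap, the reverse of the brighter pair. The 2 probe sets of AY601866, 11762062_x_at and 11762061_at, read 4.72 to 6.75 on all 4 arrays, below background, and give no change.

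The change of HMGA2 thus spanned -0.37 to 3.23 over its 4 tested probe sets, a range of 3.60 on the log2 scale. Over 8306 genes with at least 2 tested probe sets the median range was 0.33, but the probe set that sets the HMGA2 range is the one HMGA2 was chosen for, so nothing is read from that contrast. Averaging the log2 values of all 6 HMGA2 probe sets gave 0.63, which takes in the 2 probe sets below background. Leaving out each array in turn moved the brightest probe set between 3.02 and 3.43, and the poly(A) spikes put it at 2.89.

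**Figure D1:**
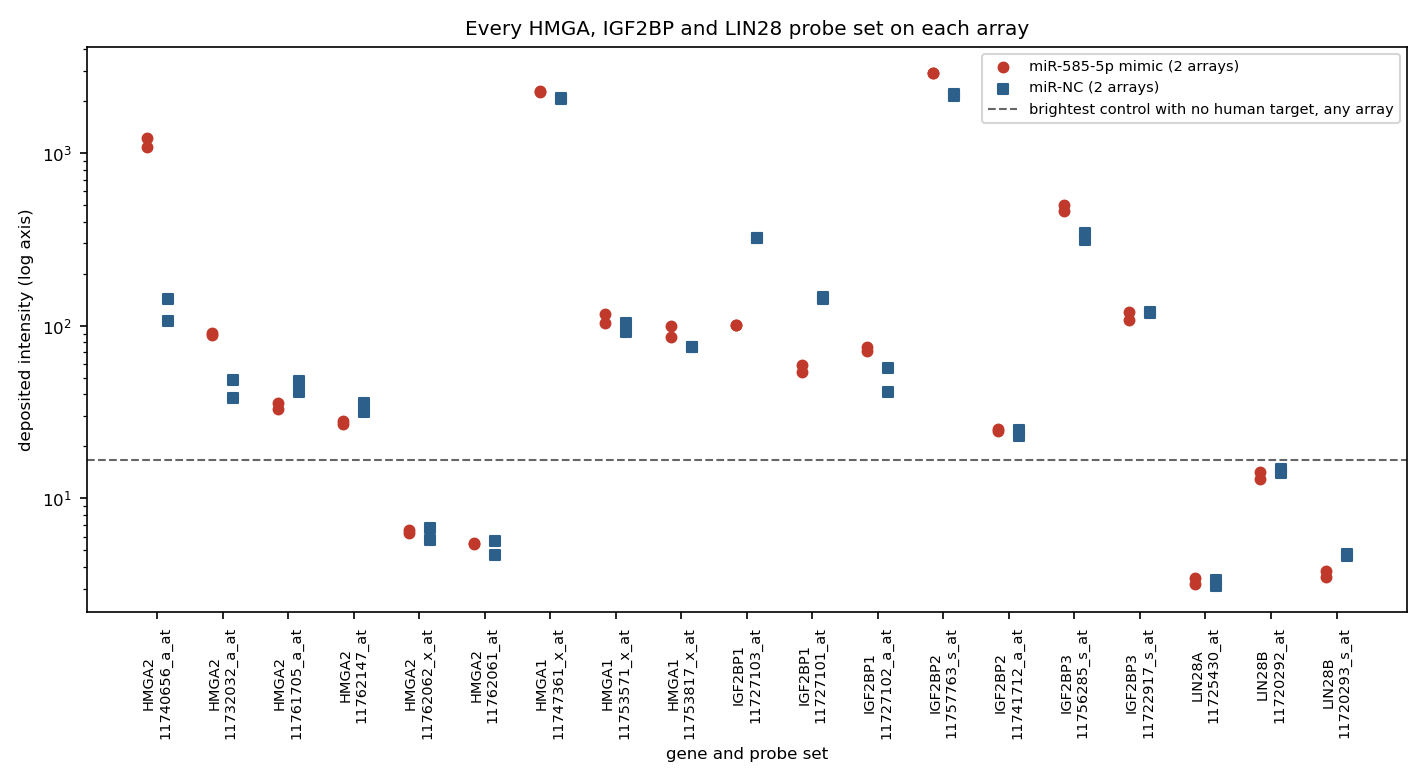
Intensity (log axis) of each of the 19 probe sets on every array, with mimic arrays as circles left of miR-NC arrays as squares, and a dashed line at the brightest control with no human target (16.8). HMGA2 11740656_a_at read 1087 and 1228 with the mimic against 107 and 142 with miR-NC, IGF2BP1 11727103_at read 100.4 and 101 against 324 and 323, and the LIN28A and LIN28B probe sets lie under the line.

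HMGA1, the other HMGA gene, on chromosome 6 (chr6:34236873-34246231, GRCh38.p14), changed little. Its 3 probe sets all carry the suffix _x_at, with which the manufacturer marks probes that can match other sequences, so signal from HMGA1 and from similar sequences cannot be told apart. The brightest, 11747361_x_at, read 2294 and 2256 on the mimic arrays, against 2089 and 2066 on the miR-NC arrays. The groups did not overlap, and the difference was 0.13 ± 0.05 (log2, SE, limma adjusted p = 0.0320), or 1.09-fold. Probe set 11753817_x_at read 99.0 and 85.7 on the mimic arrays, against 75.0 and 75.1 on the miR-NC arrays, a change of 0.30 ± 0.11 (limma adjusted p = 0.0353). The third, 11753571_x_at, read 117 and 103 on the mimic arrays, against 103 and 92.5 on the miR-NC arrays, and its groups overlapped (0.17 ± 0.10, limma adjusted p = 0.204).

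Neither HMGA1 call was stable. The brightest probe set did not pass without mimic replicate 1 (0.12) or mimic replicate 2 (0.14), nor after a second quantile normalization (0.06), and it was at -0.21 with the poly(A) spikes. Over its 12 alternatives the adjusted p ran from 0.0220 to 0.329. Probe set 11753817_x_at did not pass when any one of the 4 arrays was left out (0.19 to 0.40), nor after a second quantile normalization (0.25), and was at -0.04 with the poly(A) spikes, with adjusted p from 0.0134 to 0.801 over 10 alternatives.

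LIN28A (chr1:26410817-26429728) and LIN28B (chr6:104937026-105083332) gave no signal that could be compared. The LIN28A probe set, 11725430_at, read 3.44 and 3.18 on the mimic arrays, against 3.35 and 3.09 on the miR-NC arrays, all far under the controls with no human target. LIN28B probe set 11720293_s_at read 3.50 and 3.81 on the mimic arrays, against 4.62 and 4.76 on the miR-NC arrays, also under background. LIN28B probe set 11720292_at read 14.3 and 12.9 on the mimic arrays, against 13.97 and 14.7 on the miR-NC arrays. It exceeded the controls on 1 array of each group, and it passed the filter but not the test (limma adjusted p = 0.690). Neither LIN28 gene was above background on both arrays of a group, and no fold is given.

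IGF2BP1, on chromosome 17 (chr17:48996558-49056145, GRCh38.p14), read lower with the mimic on its brighter probe sets and higher on the third. The brightest, 11727103_at, is annotated to the RefSeq transcript NM_006546. It read 100.4 and 101 on the mimic arrays, against 324 and 323 on the miR-NC arrays. The 2 arrays of each group were almost equal, and the groups lay far apart. Mean intensity was 101 ± 0.698 in the mimic group and 323 ± 0.433 in the miR-NC group (SD, n = 2 each). The change was -1.68 ± 0.08 (log2, SE), a 3.20-fold lower level with the mimic, and the 4 array pairs ran from -1.69 to -1.67. By this probe set IGF2BP1 ranked 75 of 14123 genes from the bottom, again by choice.

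Probe set 11727101_at of IGF2BP1 (AK095573) showed the same direction. It read 54.2 and 59.5 on the mimic arrays, against 147 and 143 on the miR-NC arrays, a change of -1.35 ± 0.10 (log2, SE) or 2.55-fold lower with the mimic. Probe set 11727102_a_at (AF198254) went the other way. It read 71.4 and 74.9 on the mimic arrays, against 41.1 and 57.1 on the miR-NC arrays. Its groups did not overlap, but its miR-NC arrays differed by -0.47 (log2, replicate 1 minus replicate 2), more than any other miR-NC pair among the 15 tested probe sets, and the change of 0.59 ± 0.15 (log2, SE) became 0.36 without miR-NC replicate 1 and 0.83 without miR-NC replicate 2.

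The change of IGF2BP1 therefore spanned -1.68 to 0.59 over its 3 probe sets, a range of 2.27 on the log2 scale, and their mean was -0.81. Probe sets pointing both ways occurred elsewhere on the array too: of 4119 genes with at least 2 called probe sets, 511 (12.4%) had calls in both directions. For HMGA2 and IGF2BP1 the annotation gives no position of the probes within the transcripts, so which transcript forms each probe set reads was not tested.

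IGF2BP2, on chromosome 3 (chr3:185643130-185825042), rose modestly on its bright probe set. Probe set 11757763_s_at read 2919 and 2899 on the mimic arrays, against 2196 and 2132 on the miR-NC arrays. Arrays of a group were close, the groups did not overlap, and the change was 0.43 ± 0.05 (log2, SE, limma adjusted p = 7.93e-06), or 1.34-fold. The dim probe set 11741712_a_at read 25.1 and 24.7 on the mimic arrays, against 23.0 and 24.7 on the miR-NC arrays, with overlapping groups (0.06 ± 0.13, limma adjusted p = 0.720). That rise was lost with the poly(A) spikes (0.09), it was 0.24 with the mean of both probe sets, and leaving out _s_at and _x_at probe sets, whose probes can match more than one transcript, leaves the dim one alone. For the bright probe set itself, limma adjusted p ran from 4.79e-15 (replicate block) to 0.485 (poly(A) spikes). The block left the change as it was and gave a larger SE, 0.0528 against 0.0450. Its smaller p is therefore not read as stronger evidence. Its 13 alternatives also take in the dim probe set, at up to 0.725 when used alone.

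IGF2BP3, on chromosome 7 (chr7:23310209-23470491), split in the same manner. Probe set 11756285_s_at (BX640800) read 461 and 501 on the mimic arrays, against 315 and 344 on the miR-NC arrays. It rose by 0.54 ± 0.08 (log2, SE, limma adjusted p = 7.13e-05), or 1.46-fold. Probe set 11722917_s_at (BC065269) read 120.02 and 108 on the mimic arrays, against 119.97 and 118 on the miR-NC arrays, with overlapping groups (-0.06 ± 0.09, limma adjusted p = 0.606). On the poly(A) scale the first did not pass (0.21) and the second was called lower (-0.40), and the mean of both was 0.24 on the deposited scale. For the first itself, limma adjusted p ran from 1.14e-11 (replicate block) to 0.0909 (poly(A) spikes). Here too the block gave the same change with a larger SE, 0.0773 against 0.0751, so its smaller p is not read as stronger evidence. Its 12 alternatives also take in the second probe set, at 0.606 when used alone.

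Across HMGA1, LIN28B, IGF2BP2 and IGF2BP3, 8 probe sets were tested, of which 4 were called higher and 0 lower by limma, and the same counts held at an unadjusted p under 0.05. Over all 34508 probe sets tested, 51.0% were called, 27.0% higher and 23.9% lower with the mimic, so calls were common over the whole array. The groups did not overlap for 4 of these 8, the 4 called ones, against 76.8% of all probe sets tested. Every tested probe set of HMGA2 and IGF2BP1 was also without overlap. Those genes were chosen for this contrast, so they are left out of that count. Because the IGF2BP1 change is a description, no test sets it against the changes of IGF2BP2 and IGF2BP3, and the values side by side for the brightest probe sets are -1.68, 0.43 and 0.54 (log2).

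**Figure D2:**
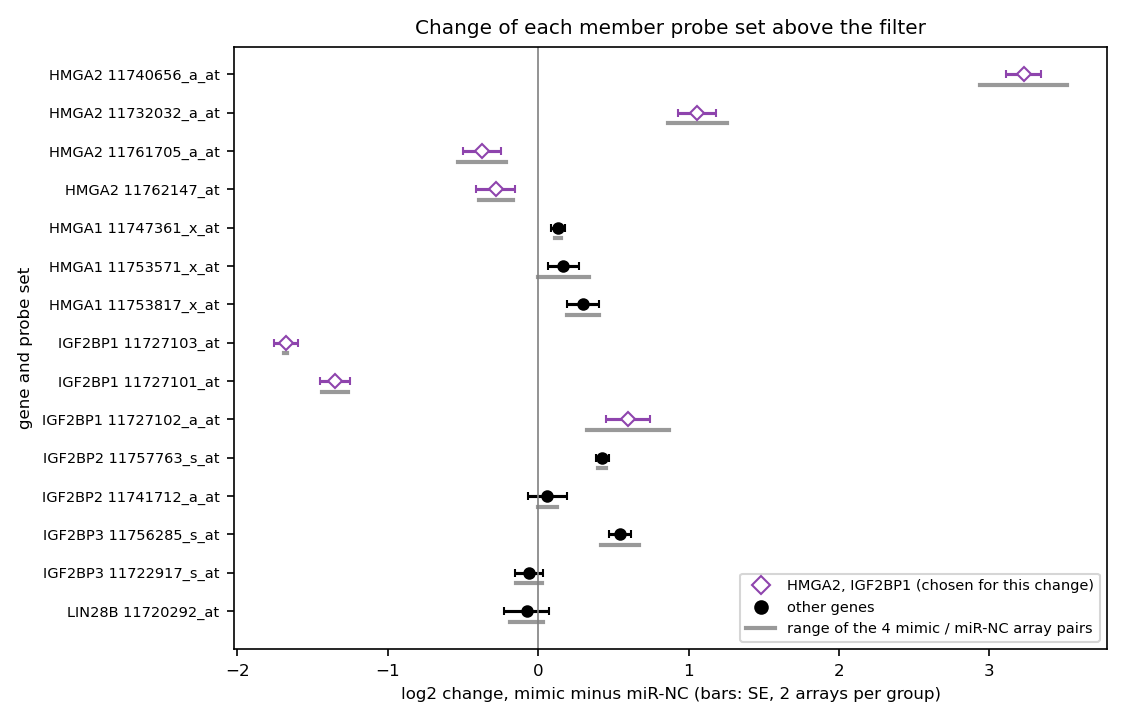
Log2 change, mimic minus miR-NC, of the 15 probe sets above the filter, with SE bars and a grey line for the range over the 4 array pairs. Open diamonds mark HMGA2 and IGF2BP1, chosen for this change. HMGA2 spans -0.37 to 3.23 and IGF2BP1 -1.68 to 0.59, while the other genes lie between -0.08 and 0.54.

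The genes whose values over the 4 arrays lay nearest to those of the brightest HMGA2 probe set, by Euclidean distance of log2 values centred on each gene's mean, were CCNA2 (0.208), PBK (0.209) and CCL20 (0.277), against a median distance of 3.30 over 14117 genes. CCNA2, which encodes cyclin A2, read 293 and 350 on the mimic arrays, against 35.1 and 40.5 on the miR-NC arrays. PBK, a mitotic kinase gene, read 380 and 434 on the mimic arrays, against 41.4 and 44.8 on the miR-NC arrays. The chemokine gene CCL20 read 1269 and 1461 on the mimic arrays, against 139 and 142 on the miR-NC arrays. All 3 shared the size of the HMGA2 change and a higher mimic replicate 2, which is what this distance picks.

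Nearest to the brightest IGF2BP1 probe set were MGLL (0.0461), CDS1 (0.0504) and CORO1B (0.0514), against a median distance of 1.63. MGLL, which encodes monoacylglycerol lipase, read 223 and 221 on the mimic arrays, against 713 and 735 on the miR-NC arrays. CDS1, a CDP-diacylglycerol synthase gene, read 251 and 257 on the mimic arrays, against 823 and 848 on the miR-NC arrays. CORO1B, a coronin gene of the actin cytoskeleton, read 962 and 930 on the mimic arrays, against 3036 and 2969 on the miR-NC arrays. With 4 arrays in 2 groups these likenesses rest mostly on 1 difference between groups.

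**Figure D3:**
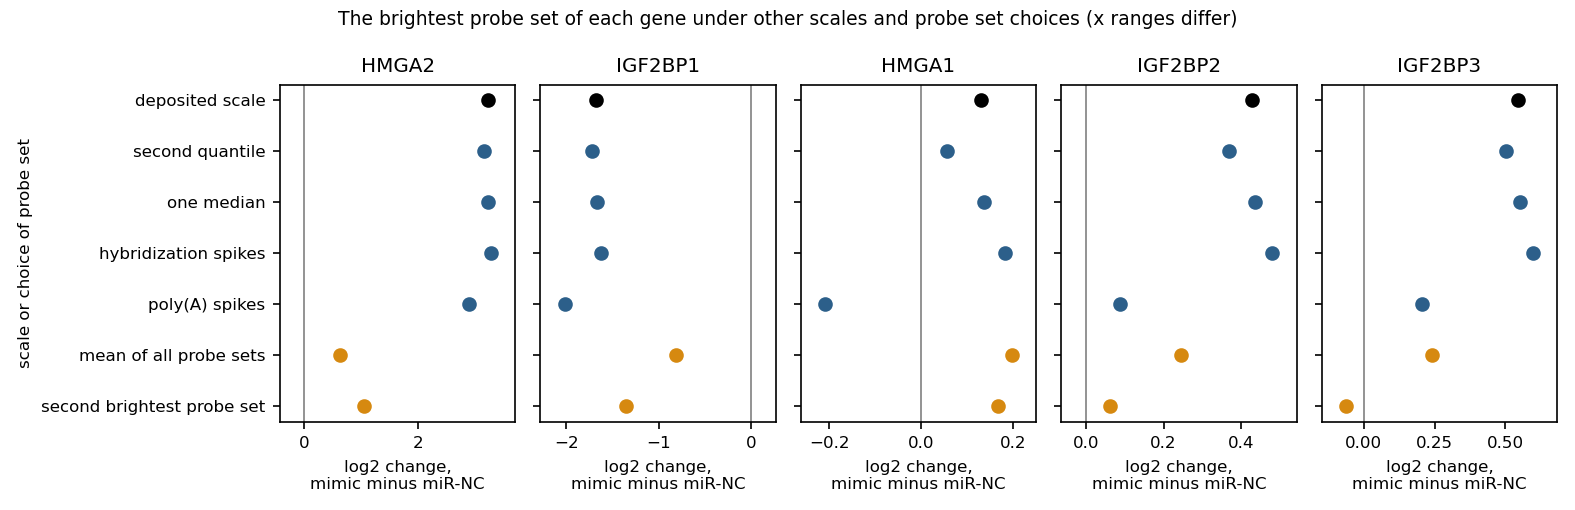
Log2 change, mimic minus miR-NC, of the brightest probe set of HMGA2, IGF2BP1, HMGA1, IGF2BP2 and IGF2BP3 on the deposited scale (black), on other scales (blue) and with other choices of probe set (orange), each panel with its own x range. HMGA2 runs from 0.63 to 3.28 and IGF2BP1 from -2.02 to -0.81, HMGA1 turns to -0.21 with the poly(A) spikes, and IGF2BP3 is at -0.06 on its second brightest probe set.

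Genes that work with these families were counted in a fit with 1 probe set per gene, the brightest, over 14123 genes. Of these, 55.0% were called, 28.1% higher and 26.9% lower with the mimic. On the poly(A) scale 1573 of the 14123 were called higher and 7816 lower, the background for each list count on that scale. Among 10 other high mobility group genes, 4 of 8 tested rose and 3 fell, with a median of 0.15 (log2), against -0.06 for all genes. Averaging each gene's probe sets turned that median to -0.16. HMGB2, a DNA-bending protein of dividing cells, read 1556 and 1708 on the mimic arrays, against 471 and 435 on the miR-NC arrays, a rise of 1.85 ± 0.06 (limma adjusted p = 7.94e-09), or 1.003 with the mean of its probe sets. The nucleosome-binding HMGN1 rose by 1.14 ± 0.09 and HMGB3 by 0.65 ± 0.09, though HMGB3 was at -0.20 with the mean of all its probe sets. HMG20B, of a REST corepressor complex, fell by 0.47 ± 0.07, and HMGN2 (-0.21) and HMGN4 (-0.16) also fell. The limit given for the _x_at probe sets of HMGA1 also holds for those of HMGN1, HMGB3, HMGN2 and HMG20B. It holds too for MGLL above and for BRCA1, ID2, YBX1 and FTO in the lists below. Probes of _s_at probe sets, as said for IGF2BP2, can match more than 1 transcript. Such probe sets read IGF2BP3, CORO1B, HMGB2, DGCR8, TUT7, TGFBR1, CDC25A, CTNNB1, CD44, BTRC and SRF. They also read FMR1, SYNCRIP, STAU1, HNRNPU, RBM15, YTHDF1 and PEG10. The HMGN4 call was lost without either mimic array (-0.19 and -0.14), without miR-NC replicate 2 (-0.14), with arrays set to one median (-0.15) and with the hybridization spikes (-0.11).

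Of 8 tested genes, among 9 listed for let-7 turnover and microRNA processing, 3 rose and 2 fell, with a median of 0.10 (log2). The Argonaute AGO2 rose by 0.60 ± 0.09, DICER1, which cuts precursors, by 0.42 ± 0.11 and the exporter XPO5 by 0.25 ± 0.09. DGCR8, the partner of DROSHA, fell by 0.36 ± 0.11, and TUT7, a uridylyltransferase that acts on let-7 precursors, by 0.30 ± 0.09. None of the 3 rises passed with the poly(A) spikes, where AGO2 was at 0.26, DICER1 at 0.08 and XPO5 at -0.09, and XPO5 was at -0.44 with the mean of its probe sets. Calls on DICER1 (0.44 and 0.40), XPO5 (0.28 and 0.22), DGCR8 (-0.35 and -0.37) and TUT7 (-0.36 and -0.24) were lost without mimic replicate 1 and without mimic replicate 2. Leaving out miR-NC replicate 1 lost DGCR8 (-0.25) and TUT7 (-0.18), and leaving out miR-NC replicate 2 lost XPO5 (0.16), as did a second quantile normalization (0.20). Without miR-NC replicate 1 DICER1 was at 0.23. DICER1 (0.12) and TUT7 (-0.06) did not pass with the mean over their probe sets.

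Of 17 tested genes, among 22 reported as let-7 targets, 9 were called higher and 1 lower, with a median of 0.37 (log2), or 0.12 with the mean of each gene's probe sets. Among the 9 is PLAG1, which passed the filter only through its mimic arrays. TGFBR1, a receptor for TGF-beta, read 1128 and 1302 on the mimic arrays, against 472 and 536 on the miR-NC arrays, a rise of 1.27 ± 0.08 (limma adjusted p = 3.76e-07), or 0.60 with the mean of its probe sets. The cell cycle phosphatase CDC25A rose by 0.999 ± 0.12 and the mitotic kinase AURKB by 0.99 ± 0.07, while the DNA-binding ARID3A fell by 0.35 ± 0.08. On the poly(A) scale 6 were higher and 7 lower, against 1573 and 7816 of all 14123 genes. Averaging each gene's probe sets gave 8 and 5, against 3655 and 3780 of all genes.

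Genes reported to be regulated by HMGA1 or HMGA2 were divided, with 5 of 12 higher, 5 lower and a median of 0.05 (log2). CCNA2 rose by 3.09 ± 0.11 (limma adjusted p = 1.02e-08), the repair gene BRCA1 by 1.496 ± 0.12 and the insulin receptor gene INSR by 0.96 ± 0.08. Averaging their probe sets put BRCA1 at 0.89 and INSR at 0.56. The prostaglandin synthase gene PTGS2 read 20.5 and 25.1 on the mimic arrays, against 84.9 and 84.3 on the miR-NC arrays, a fall of 1.90 ± 0.13 (limma adjusted p = 5.80e-07), or -1.03 with the mean of its probe sets. ID2, an inhibitor of helix-loop-helix factors, fell by 0.79 ± 0.09 and the repair nuclease gene ERCC1 by 0.58 ± 0.06.

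Among 17 reported target RNAs of the IGF2BP proteins, 6 of 12 tested rose and 2 fell, with a median of 0.16 (log2). On the poly(A) scale 2 were higher and 5 lower, against 1573 and 7816 of all 14123 genes. The mean of each gene's probe sets gave a median of -0.04. The cell cycle factor FOXM1 rose by 0.73 ± 0.13, beta-catenin (CTNNB1) by 0.61 ± 0.12 and the hyaluronan receptor gene CD44 by 0.52 ± 0.05, though CD44 was at -0.03 with the mean of its probe sets and did not pass with the poly(A) spikes (0.18). The CTNNB1 value was 0.37 without miR-NC replicate 1, 0.85 without miR-NC replicate 2 and 0.23 with the mean of its probe sets, and FOXM1 was at 0.24 with that mean. BTRC, a ubiquitin ligase subunit whose messenger RNA IGF2BP1 is known to bind, read 116 and 110 on the mimic arrays, against 222 and 262 on the miR-NC arrays, a fall of 1.10 ± 0.10 (limma adjusted p = 3.60e-06), or -0.53 with the mean of its probe sets. The transcription factor SRF fell by 0.50 ± 0.08.

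Partners of IGF2BP1 in messenger ribonucleoprotein particles gave 5 higher, 1 lower and 2 uncalled of 8, with a median of 0.44 (log2), and 3 higher and 3 lower on the poly(A) scale. FMR1 rose by 1.16 ± 0.10, ELAVL1 (HuR) by 0.82 ± 0.07 and SYNCRIP by 0.75 ± 0.07. STAU1, which binds double-stranded RNA, read 2460 and 2399 on the mimic arrays, against 3633 and 4139 on the miR-NC arrays, a fall of 0.67 ± 0.06 (limma adjusted p = 3.29e-06). HNRNPU (0.04 ± 0.05) and YBX1 (0.03 ± 0.04) did not pass and were called lower with the poly(A) spikes (-0.30 and -0.31).

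For the m6A mark that IGF2BP proteins read, 7 of 12 tested writers, erasers and readers (15 listed) rose and 4 fell, with a median of 0.18 (log2). The writer components CBLL1, METTL14 and RBM15 rose by 0.79 ± 0.13, 0.46 ± 0.08 and 0.45 ± 0.08. RBM15B, a relative of RBM15, fell by 0.85 ± 0.08, the demethylase FTO by 0.58 ± 0.05 and the reader YTHDF1 by 0.31 ± 0.06. Scaled to the poly(A) spikes 1 gene was higher and 5 lower, and METTL14 (0.12) and RBM15 (0.11) did not pass. With the mean of their probe sets YTHDF1 did not pass (-0.06) and RBM15B was at -0.26.

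Of 12 other oncofetal genes, 6 were tested, of which 3 were called higher and 1 lower, with a median of 0.13 (log2), and 1 and 2 on the poly(A) scale. PLAG1, a fetal zinc finger factor, read 18.1 and 23.0 on the mimic arrays, against 8.91 and 13.7 on the miR-NC arrays. Its miR-NC values were not above background, and it was at least 1.32-fold higher with the mimic, set against the higher of its own value and the brightest control on each miR-NC array. It passed the filter only through the mimic arrays, so its call in both lists that hold it supports nothing, and no p is given. The trophoblast glycoprotein gene TPBG rose by 0.38 ± 0.08 and PLAC1 by 0.35 ± 0.11, and neither passed with the poly(A) spikes (0.04 and 0.02). TPBG did not pass without mimic replicate 2 (0.34), nor PLAC1 without either mimic array (0.38 and 0.33) or without miR-NC replicate 2 (0.27). The imprinted PEG10 read 46.1 and 45.2 on the mimic arrays, against 90.4 and 108 on the miR-NC arrays, a fall of 1.12 ± 0.12 (limma adjusted p = 1.25e-05), or -0.70 with the mean of its probe sets.

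The poly(A) scale shifts every median by the same amount and so leaves their order as it is. With the mean of each gene's probe sets, dim ones included, the median was -0.16 for the other high mobility group genes, below the -0.06 of all genes. It was -0.01 for let-7 turnover, -0.04 for IGF2BP target RNAs and 0.12 for let-7 targets. The remaining lists gave 0.40 for IGF2BP1 partners, 0.11 for other oncofetal genes, 0.08 for m6A genes and 0.05 for genes regulated by HMGA1 or HMGA2. The lists share DICER1, MYC, TRIM71 and PLAG1 between pairs of them, and CCNA2 is also among the genes nearest to HMGA2.

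**Figure D4:**
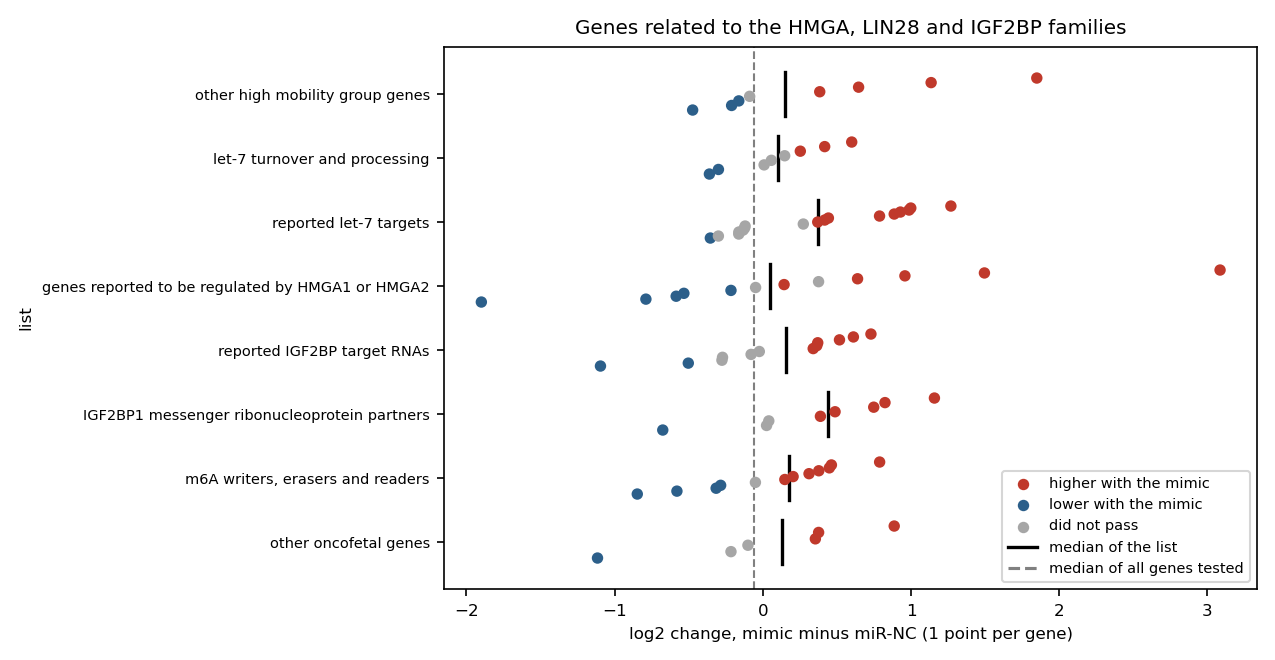
Log2 change, mimic minus miR-NC, of each tested gene of the 8 related lists (red higher, blue lower, grey not past the threshold), with a black bar at each list's median and a dashed line at the median of all genes (-0.06). Every list holds genes on both sides, from PTGS2 at -1.90 to CCNA2 at 3.09.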

How the data were processed

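Total RNA of 2 mimic and 2 miR-NC samples was measured on 4 arrays. The values are deposited probe set intensities, for which RMA is named per the submitters' processing notes. They range from 2.09 to 17329, too wide for log2 values, so they were taken as linear and log2 was computed from them. RMA brings the arrays close to 1 distribution (medians of 30.6 to 31.3 here), so a shift of the whole transcriptome could not be measured on this scale. The sources used here name no filter. Gene symbols came from the platform annotation (44988 of 49395 with 1 symbol, 1832 with several, 2473 with none and 102 controls), and the GRCh38.p14 gene table changed 0 symbols. The precision is limited by the number of arrays.

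limma 3.58.1 in R 4.3.3 (lmFit, eBayes with trend, Benjamini-Hochberg over all features, two-sided) was fitted to 34508 probe sets and, separately, to the brightest probe set of 14123 genes. The fits had 2 residual degrees of freedom and prior degrees of freedom of 9.58 and 8.35. In simulated data with 200 changed features, the probe set fit recovered 6% at 1.25-fold, 52% at 1.5-fold and 94% at 2-fold. The gene fit recovered 26%, 64% and 98%. On the real arrays 51.0% of probe sets were called, so these shares need not hold there. The named genes were the members, up to 3 called genes per direction of each list, uncalled genes of lists of 8 or fewer, and the 3 genes nearest to HMGA2 and to IGF2BP1. The members and lists were chosen with earlier results of these data known. Alternatives changed the scale, the offset (16), the filter, the spread, the threshold, the probe set, the replicate block and the arrays used. Same-numbered arrays deviated together at a correlation of 0.07 over probe sets, so the numbers were not taken as pairs. Lists were counted over genes with a probe set of 1 symbol. Protein sequences were not used here.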

Additional observations from a re-analysis of the deposited data

How the results depend on the processing

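The number of arrays limits every value, and 163 alternative values were computed for the 15 tested member probe sets. The brightest HMGA2 probe set kept its direction at 2.89 with the poly(A) spikes and at 3.02 to 3.43 without 1 array. HMGA2 was at 1.06 on the second brightest and 0.63 as the mean of all probe sets. It turned to -0.37 and -0.28 on the dimmer tested ones. IGF2BP1 kept its direction at -1.72 (second quantile normalization), -1.67 (one median), -1.63 (hybridization spikes), -2.02 (poly(A) spikes), -1.54 (16 added), -0.81 (mean of all probe sets) and -1.35 (second brightest), and at -1.69 to -1.67 without 1 array. On the poly(A) scale HMGA1 turned to -0.21 and -0.0425, XPO5 to -0.0856, HNRNPU to -0.30 and YBX1 to -0.31. IGF2BP3 was at -0.0625 on its second brightest probe set, and averaging all probe sets of a gene put HMGB3 at -0.20, XPO5 at -0.44 and CD44 at -0.0316. The cause was not tested. Of 47 other named genes, 31 kept call and direction under all 11 alternatives run. HMGA1 and IGF2BP3 had no value without cross-hybridizing probe sets, and for HMGA2 and IGF2BP1 that choice leaves the brightest as it is.

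Changed probe sets numbered 17592 (9332 higher, 8260 lower). Scaling to the poly(A) spikes left 3835 higher and 18614 lower, a shift that moves all features alike. An ordinary variance gave 4424 (2301 and 2123), and a 2-fold minimum 2657 (1643 and 1014). Leaving out 1 array gave 11237 to 18042 in all and 4916 to 8421 lower, the lowest of both without mimic replicate 2. Changed genes numbered 7768 (3966 higher, 3802 lower), with 1573 and 7816 for the poly(A) spikes, 2911 (1449 and 1462) for an ordinary variance, 1153 (672 and 481) at 2-fold and 2509 to 4041 lower without 1 array, the lowest without mimic replicate 2. With the replicate block 18961 probe sets and 8252 genes were called and no member changed its call.

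With the poly(A) spikes 1573 of the 14123 genes were higher and 7816 lower. On that scale let-7 turnover counted 0 higher and 4 lower, let-7 targets 6 and 7, and IGF2BP targets 2 and 5. IGF2BP1 partners counted 3 higher and 3 lower, m6A genes 1 and 5, and other oncofetal genes 1 and 2. With the mean of all probe sets let-7 turnover counted 1 higher and 2 lower, let-7 targets 8 and 5, and m6A genes 4 and 2. Over all genes that mean gave 3655 higher and 3780 lower.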
